A study of Mus musculus with 27 samples.

Results

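The genes described here are 42 mouse genes whose products carry proteins into the endoplasmic reticulum (ER), fold and glycosylate them there, and clear those that misfold. They were taken by symbol from the 37332 genes of the deposited count table, with GENCODE vM21 names for its Ensembl identifiers, and all 42 were found and passed the low-count filter. For the text they were sorted by role into 10 chaperones and co-chaperones, 6 protein disulfide isomerases and lectin chaperones, 11 genes of the translocation channel and its receptor, 9 of N-glycosylation and signal peptide cleavage, and 6 of ER-associated degradation and stress sensing. RNA longer than 200 nt was depleted of ribosomal RNA and sequenced from the chromatin, nucleoplasm and cytoplasm of 3 cell types. These were mESC, the E14 line of mouse embryonic stem cells grown with LIF on gelatin, mNPC, a neural progenitor line grown with EGF and FGF, and mCtx, primary cortical neurons kept 5 days in culture. Each of the 9 groups had 3 libraries labelled as biological replicates. The series was made to follow RNA maturation across compartments during neuronal differentiation, as its title says. The stem cells and progenitors are each a single line, and the labels give neither an age nor a strain for the neurons.

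Secretory and membrane proteins are recognised by their signal sequences while still on the ribosome and are brought to the ER by the signal recognition particle and its receptor. They pass through or into the membrane at the Sec61 channel, lose the signal peptide, receive N-linked sugars from the oligosaccharyltransferase and fold with the help of the chaperones BiP and GRP94, the disulfide isomerases and the calnexin cycle. The mRNAs of such proteins are translated on ribosomes bound to the ER, whose membrane is continuous with the outer membrane of the nuclear envelope. When unfolded proteins build up, the sensors IRE1 (gene Ern1), ATF6 and PERK start the unfolded protein response, in which the transcription factors ATF6 and XBP1 raise the transcription of ER chaperone genes through the ER stress response element (ERSE).

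Levels are CPM, the count of a gene scaled by the effective size of its library, in which introns are counted with exons. Fold changes are log2 values with their standard error (SE) from the quasi-likelihood test of edgeR, fitted to 18249 genes and called at a Benjamini-Hochberg adjusted p under 0.05. They compare shares of the RNA within libraries and not amounts per cell. Libraries held 11249862 to 19871198 counts. The lowest count of any of the 42 genes in any library was 3, for Sdf2l1 on chromatin, so its chromatin values are the least precise. The mESC libraries numbered 1 stood apart in every fraction. The SD of their log2 CPM differences from the libraries numbered 2 and 3 was 0.4 to 0.564, against 0.252 to 0.302 between those 2 and 0.156 to 0.28 for any pair in the other cell types. Summed markers of the labelled cell type in cytoplasm were 2992 to 3408 CPM for stem cells in mESC, 4793 to 5398 CPM for progenitors in mNPC and 4392 to 4912 CPM for neurons in mCtx. The stem cell markers Pou5f1 and Zfp42 were at 0 in cytoplasm of mNPC and mCtx, and Nanog and Esrrb had means of 1.011 CPM or less. Sox2, counted as a marker of both stem cells and progenitors, had 509 CPM in mESC, 467 in mNPC and 52.9 in mCtx. Progenitor markers summed to 699.9 to 850.2 CPM in mCtx cytoplasm and 600.6 to 684.8 CPM in mESC. Neuron markers summed to 609.4 to 760.2 CPM in mNPC cytoplasm and 161.7 to 229 CPM in mESC. Map2 made up most of the mNPC sum, with a mean of 643.5 CPM, and Tubb3 most of the mESC sum, with 185 CPM. In mNPC cytoplasm Tubb3 was at 48.1 CPM, below mESC, and Dcx, Rbfox3 and Snap25 were at 6.02, 1.22 and 1.15 CPM. All 4 astrocyte markers and all 4 oligodendrocyte lineage markers were also detected in cytoplasm of mNPC, at summed levels of 762.9 to 1018 CPM and 1649 to 1723 CPM, and in mCtx, at 261.7 to 283.6 CPM and 124.9 to 157.6 CPM. In mESC those sums were 19.01 to 34.7 CPM and 2.85 to 6.73 CPM. Slc1a3 made up most of the astrocyte sum, with means of 761 CPM in mNPC and 240 CPM in mCtx. Olig1 and Olig2 made up most of the oligodendrocyte lineage sum, with 1001 and 617 CPM in mNPC and 82.0 and 50.2 CPM in mCtx. Gfap in mCtx was at 1.58 CPM, below its 2.55 CPM in mESC. The 3 microglial markers summed to 31.3 to 37.4 CPM in mCtx, 23.2 to 25.0 CPM in mNPC and 55.3 to 75.9 CPM in mESC, nearly all of it Cx3cr1. The part of these other cell types in the results was not tested.

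The 42 genes include classical targets of the unfolded protein response, and the exact 19-letter ERSE is a sequence that some of them share and most genes lack. RefSeq windows from 250 bases before to 50 bases after the transcription start (build GRCm38.p6) were at hand for 36 of the 42 genes, as 37 windows, and none was used for Atf6, Hyou1, Sec61a1, Ssr2, Spcs3 and Manf. The element, CCAAT and CCACG with 9 bases of any kind between them, was searched on both strands and lay in 7 of the 37 windows (18.9%), against 39 of the 32851 windows of all genes (0.119%). It lay in 4 of the 8 chaperone windows and in 3 of the 6 windows of disulfide isomerases and lectins. None of the 9 translocation, 9 glycosylation and peptidase or 5 degradation and stress windows held it. The 11-letter ERSE-II, ATTGG and CCACG with 1 base of any kind between them, lay in the windows of Herpud1 and of Dnajb11, where it reaches past the start and is not printed, or 5.41% of the windows against 0.0365% of all. No member window held TGACGTGG, which lay in 0.676% of all windows. The 3 motifs are distinct, and no match says only that these exact letters are not in the window. Each upstream match is given with 15 bases on either side, 5′ to 3′ on the strand of the gene, with the element in capitals, to show the letters behind these counts. The starts are those of RefSeq and can lie inside the span of the gene in the count table, as in Hspa5.
Hspa5, chr2:34772010-34772058, plus strand: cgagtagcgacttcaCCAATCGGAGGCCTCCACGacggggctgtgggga
Hsp90b1, chr10:86705623-86705671, minus strand: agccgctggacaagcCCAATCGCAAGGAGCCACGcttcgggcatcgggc
Hsp90b1, chr10:86705518-86705566, minus strand: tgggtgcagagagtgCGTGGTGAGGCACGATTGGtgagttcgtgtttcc
Dnajc3, chr14:118937812-118937860, plus strand: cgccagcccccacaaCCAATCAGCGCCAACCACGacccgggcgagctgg
Creld2, chr15:88819505-88819553, plus strand: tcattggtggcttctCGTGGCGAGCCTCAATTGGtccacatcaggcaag
Pdia6, chr12:17266476-17266524, plus strand: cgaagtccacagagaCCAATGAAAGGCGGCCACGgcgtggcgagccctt
Calr, chr8:84847060-84847108, minus strand: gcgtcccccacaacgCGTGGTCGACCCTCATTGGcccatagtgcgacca
Canx, chr11:50325785-50325833, minus strand: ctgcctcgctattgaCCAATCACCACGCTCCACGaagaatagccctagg
Herpud1 (ERSE-II), chr8:94386362-94386402, plus strand: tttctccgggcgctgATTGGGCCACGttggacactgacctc
The second site of Hsp90b1 and those of Creld2 and Calr hold the element on the strand opposite to the gene. In Hspa5 the last base of the element lies 47 bases before the start. The elements are a description of these windows, and binding was not measured. As the element is known from ER chaperone genes, its higher share among the members is not an independent finding.

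The comparison of nucleoplasm with cytoplasm asks which of the genes' RNAs take a larger share of the nucleoplasm libraries than of the cytoplasm libraries. The nucleoplasm libraries also held mitochondrially encoded RNA, as given below. Whether the RNAs of the ER genes in them lay inside the nucleus was not tested. In mESC nearly all of the 42 genes took the larger share in nucleoplasm. There, 40 of the 42 genes were higher in nucleoplasm and 2 were lower, with a median log2 fold change of 2.41, while 29.9% of the 18249 genes tested were higher, 33.2% were lower and their median was 0. In mNPC 30 were higher and 3 lower, with a median of 1.34, against 22.6% and 27.5% of all genes. In mCtx the genes divided, with 11 higher, 19 lower and a median of -0.20, against 29.6% and 28.6% of all genes. The mCtx split moved with the scaling. It was 15 higher and 16 lower with median-ratio size factors, 15 and 17 with DESeq2, and 8 and 24 with total counts. Deposited TPM without rescaling gave 28 higher and 2 lower. With it 10733 of the 19447 genes tested were higher and 735 lower, and the median of all genes moved to 0.545. TPM rescaled by the median ratio gave 12 and 18. Summed over the 42 genes, the share of all counts in mESC was 1.29% ± 0.168 in nucleoplasm, 0.25% ± 0.0208 in cytoplasm and 0.385% ± 0.0323 on chromatin (SD over 3 libraries). In mNPC it was 1.43% ± 0.0766, 0.516% ± 0.0411 and 0.293% ± 0.0086. For mCtx the shares were 0.534% ± 0.0265, 0.587% ± 0.0045 and 0.153% ± 0.006, so that nucleoplasm stood above cytoplasm in every library of mESC and mNPC and below it in every library of mCtx. The summed TPM of the 42 genes differed from this in mCtx, with 1748 to 2165 TPM in nucleoplasm and 806 to 835 TPM in cytoplasm. It was also higher in nucleoplasm in mESC (2677 to 4426 against 594 to 903 TPM) and mNPC (1146 to 1874 against 667 to 772 TPM).

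**Figure D1:**
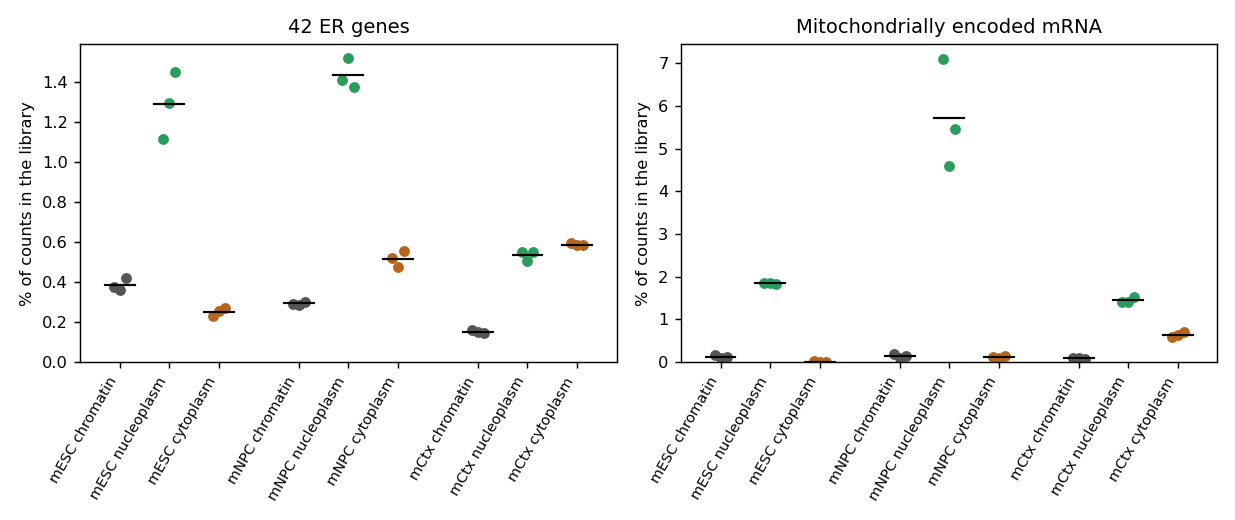
Share of the counts of each library (percent, linear axes from 0) taken by the 42 ER genes (left) and by mitochondrially encoded mRNA (right), with 1 point per library, black bars for the mean of 3 libraries, and grey, green and brown for chromatin, nucleoplasm and cytoplasm. The ER genes took 1.11% to 1.45% of nucleoplasm counts in mESC, 1.37% to 1.52% in mNPC and 0.504% to 0.55% in mCtx. Mitochondrial mRNA was highest in nucleoplasm in each cell type, while the ER genes were so in mESC and mNPC and not in mCtx.

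Mitochondrially encoded RNA was unequally spread over the same fractions. Genes of the mitochondrial chromosome took 27.9% to 29.8% of nucleoplasm counts in mESC, 7.81% to 15.7% in mNPC and 2.01% to 2.30% in mCtx, and 0.1998% to 0.386%, 0.126% to 0.209% and 0.916% to 1.61% of cytoplasm counts. The 10 mitochondrial mRNAs tested were higher in nucleoplasm than in cytoplasm in 10 of 10 cases for mESC (median log2 fold change 7.25), 10 for mNPC (6.005) and 7 for mCtx (1.73). Like that of the ER genes, their median was largest in mESC and smallest in mCtx. The share of mitochondrial mRNA in nucleoplasm had another order. Its mean was highest for progenitors, at 5.72%, with 1.85% for stem cells and 1.45% for neurons. All genes of the mitochondrial chromosome had a mean of 29.1% in stem cell nucleoplasm, so most of that was not mRNA. In cytoplasm the mean mRNA share was 0.0137% for stem cells, 0.123% for progenitors and 0.646% for neurons. The part of mitochondrial RNA in the ER gene values was not tested. Of 6 nuclear noncoding RNAs tested (such as Malat1 and Neat1), 6, 5 and 4 were higher in nucleoplasm than in cytoplasm in mESC, mNPC and mCtx, and 1 was lower in mCtx.

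**Figure D2:**
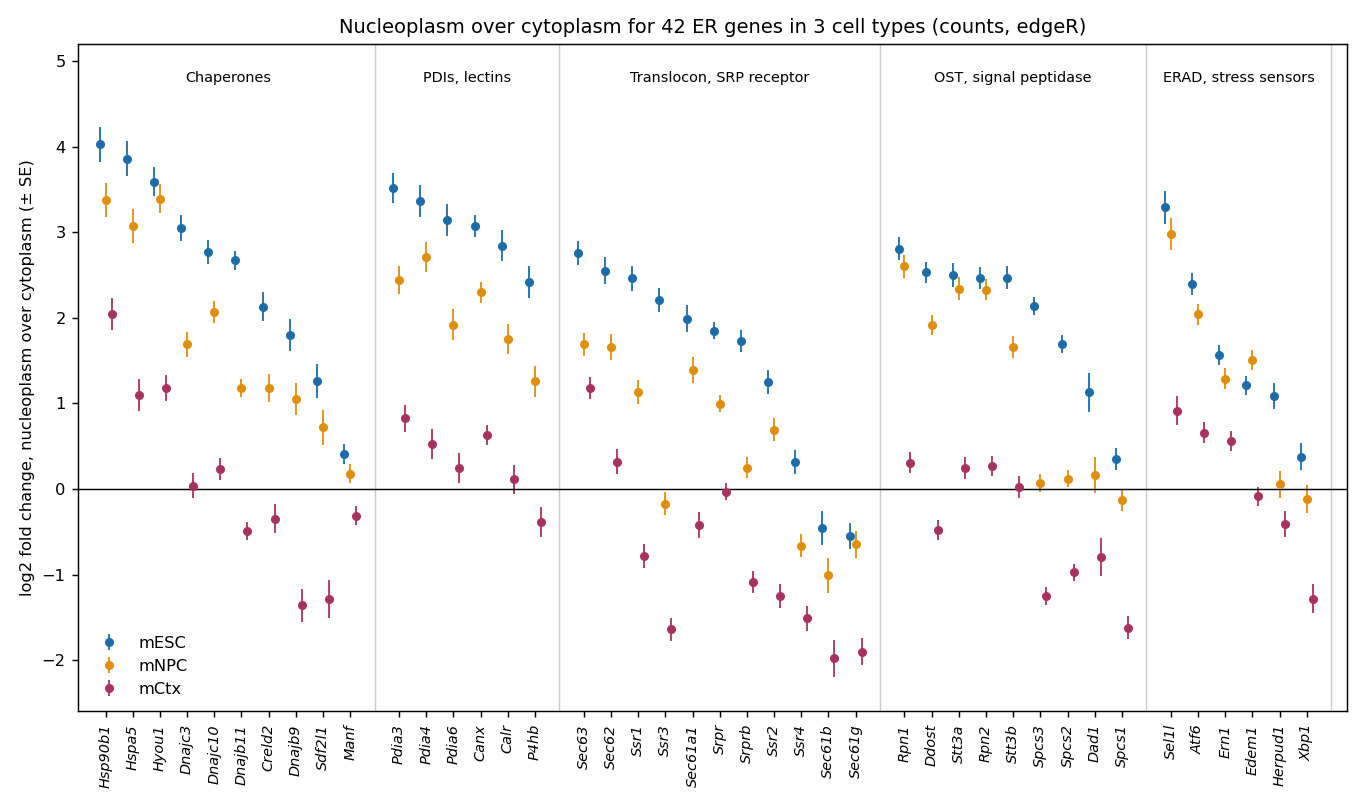
Log2 fold change of nucleoplasm over cytoplasm (counts, edgeR) with its SE for each of the 42 genes, grouped by role and coloured by cell type. The mESC values run from 4.03 for Hsp90b1 to -0.56 for Sec61g, and for 41 of the 42 genes, Edem1 being the exception, the order of the cell types is mESC, mNPC, mCtx.

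Among the chaperones were the 3 genes with the largest changes in mESC, Hsp90b1, Hspa5 and Hyou1. All 10 were above cytoplasm in mESC, 9 were in mNPC and 3 in mCtx, where 4 were lower. Of all genes tested, 29.9%, 22.6% and 29.6% were higher in mESC, mNPC and mCtx, and 33.2%, 27.5% and 28.6% were lower. The 3 of 10 chaperones higher in mCtx lay near that share. Hspa5 (chr2:34771970-34776531, mm10) encodes BiP, the Hsp70 of the ER lumen. In mESC its 3 libraries stood at 717, 897 and 1267 CPM in nucleoplasm, 47.8, 65.9 and 84.8 in cytoplasm and 69.9, 54.3 and 73.6 on chromatin. Those of mNPC held 1319, 1269 and 1072 CPM in nucleoplasm, 146, 126 and 164 in cytoplasm and 84.1, 73.5 and 92.97 on chromatin. The neurons had 434, 403 and 455 CPM in nucleoplasm, 207, 188 and 208 in cytoplasm and 51.6, 46.8 and 45.7 on chromatin. Every nucleoplasm library was above every cytoplasm library of its cell type. The log2 fold change was 3.86 ± 0.20 in mESC (edgeR adjusted p = 1.86e-14), 3.07 ± 0.20 in mNPC (8.34e-13) and 1.10 ± 0.18 in mCtx (1.15e-05).

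Hsp90b1 (chr10:86690209-86705509), which encodes the ER chaperone GRP94, ranked first of the 42 genes in mESC and mCtx and second in mNPC. Its levels were 1035, 1404 and 1734 CPM in nucleoplasm, 60.7, 91.00 and 103 in cytoplasm and 184, 171 and 236 on chromatin in mESC. In mNPC they were 1918, 1639 and 1428 CPM in nucleoplasm, 163, 143 and 174 in cytoplasm and 196, 184 and 201 on chromatin. In mCtx they were 564, 558 and 612 CPM in nucleoplasm, 161, 117 and 145 in cytoplasm and 97.5, 102 and 102 on chromatin. Nucleoplasm exceeded cytoplasm without overlap in all 3 cell types, by 4.03 ± 0.20, 3.38 ± 0.20 and 2.04 ± 0.19 (edgeR adjusted p = 7.77e-15, 1.43e-13 and 6.37e-10). Hyou1, the nucleotide exchange factor of BiP, was close behind with 3.59 ± 0.17, 3.39 ± 0.17 and 1.18 ± 0.16. The J-domain partners of BiP were less uniform. Dnajc10, a disulfide reductase, had 2.77, 2.07 and 0.23, the last not called, and Dnajc3, also an inhibitor of the kinase PERK, had 3.05, 1.69 and 0.04, the last not called. Dnajb11 and Dnajb9 turned from 2.67 and 1.80 in mESC to -0.49 and -1.36 in mCtx, each called.

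Manf (chr9:106838312-106891979), which encodes a secreted and ER-resident neurotrophic factor, had the smallest mean of the chaperone group. The mESC libraries read 124, 148 and 179 CPM in nucleoplasm, 117, 111 and 112 in cytoplasm and 48.99, 45.2 and 49.7 on chromatin. In mNPC the values were 211, 244 and 242 CPM in nucleoplasm, 208, 211 and 199 in cytoplasm and 51.3, 60.04 and 57.3 on chromatin. In mCtx they were 244, 223 and 249 CPM in nucleoplasm, 280.1, 310.5 and 298 in cytoplasm and 77.3, 66.9 and 69.4 on chromatin. Nucleoplasm was above cytoplasm in mESC, by little in mNPC, and below it in mCtx, without overlap. The log2 fold changes were 0.41 ± 0.11, 0.18 ± 0.11 and -0.31 ± 0.11 (edgeR adjusted p = 0.00249, 0.199 and 0.0179), and the last lost its call with median-ratio size factors (-0.23), without the filter (-0.28) and without nucleoplasm or cytoplasm library 2 of mCtx (-0.28 in both). Genes on the other strand, among them Dcaf1 and Rbm15b, cover 83.9% of the Manf span. The strand setting of the counting is not given in the sources used here, so its counts are uncertain.

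All 6 disulfide isomerases and lectin chaperones were above cytoplasm in mESC and again in mNPC. In mCtx 3 were and none was lower, against 29.6% and 28.6% of all genes. In mESC and mNPC 29.9% and 22.6% of all genes were higher. Pdia3 (chr2:121413775-121438687) encodes ERp57, which forms disulfide bonds in glycoproteins held by calnexin and calreticulin. It was at 136, 189 and 210.1 CPM in nucleoplasm, 12.7, 16.5 and 17.5 in cytoplasm and 38.9, 40.7 and 54.9 on chromatin in mESC. For mNPC the libraries gave 442, 360.0 and 301 CPM in nucleoplasm, 66.8, 61.5 and 75.2 in cytoplasm and 45.7, 42.1 and 42.5 on chromatin. For mCtx they gave 206, 195 and 199 CPM in nucleoplasm, 124, 106 and 108 in cytoplasm and 51.4, 60.6 and 60.1 on chromatin. No nucleoplasm library overlapped a cytoplasm library, and the distance between them was smallest in mCtx, where cytoplasm was highest. The log2 fold changes were 3.52 ± 0.18, 2.44 ± 0.17 and 0.82 ± 0.16 (edgeR adjusted p = 6.55e-15, 2.28e-12 and 6.33e-05).

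Canx (chr11:50293961-50325673), which encodes the membrane lectin calnexin, had the highest mean CPM of its group and the highest TPM of the 42 genes in nucleoplasm of each cell type. TPM are scaled by transcript length, which counts per span are not, and the means were 526 TPM ± 79.5 for mESC, 158 ± 48.8 for mNPC and 285 ± 27.2 for mCtx (SD, n = 3). By CPM, its mESC libraries held 2364, 2327 and 2633 CPM in nucleoplasm, 298, 286 and 291 in cytoplasm and 384, 368 and 390.1 on chromatin. The mNPC libraries held 2108, 1996 and 1665 CPM in nucleoplasm, 391, 350.2 and 432 in cytoplasm and 148, 131 and 140.3 on chromatin. The mCtx libraries held 783, 758 and 794 CPM in nucleoplasm, 533, 459.6 and 521 in cytoplasm and 137, 155 and 159 on chromatin. The nucleoplasm libraries were above all others of their cell type, by 3.07 ± 0.13, 2.30 ± 0.12 and 0.63 ± 0.12 over cytoplasm (edgeR adjusted p = 2.28e-16, 2.59e-14 and 4.8e-05).

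P4hb (chr11:120560298-120573253) encodes protein disulfide isomerase, which is also the beta subunit of prolyl 4-hydroxylase, and had the smallest mean of this group. In stem cells the values were 917, 1356 and 1603 CPM in nucleoplasm, 193, 236 and 294 in cytoplasm and 112, 112 and 157 on chromatin. In progenitors they were 1074, 1257 and 990.5 CPM in nucleoplasm, 445, 419 and 526 in cytoplasm and 76.7, 69.6 and 76.05 on chromatin. In neurons they were 209, 174 and 206 CPM in nucleoplasm, 248, 260.4 and 261 in cytoplasm and 38.7, 31.5 and 29.1 on chromatin. Nucleoplasm lay above cytoplasm in the lines and, in all 3 libraries, below it in neurons. The change was 2.42 ± 0.19 in mESC and 1.26 ± 0.18 in mNPC (edgeR adjusted p = 2.72e-11 and 1.49e-06), and -0.38 ± 0.18 in mCtx, which was not called (0.0686) but was with the replicate block (-0.39), the compared groups alone (-0.38) and total counts (-0.71). With TPM that were not rescaled it turned to 0.85. Calr, the soluble lectin calreticulin, Pdia4 and Pdia6 had 2.84, 3.36 and 3.14 in mESC and 0.11, 0.52 and 0.24 in mCtx, of which Pdia4 alone was called in mCtx.

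The translocation genes held the lowest value of the 42 in each cell type, that of Sec61g or Sec61b. Of the 11, 9 were above and 2 below cytoplasm in stem cells, 6 and 3 in progenitors, and 1 and 8 in neurons. The shares of all genes were 29.9% and 33.2%, 22.6% and 27.5%, and 29.6% and 28.6%, in that order. The 2 lower in mESC were Sec61b and Sec61g, the small tail-anchored subunits of the Sec61 channel, whereas Sec61a1, the multispanning channel subunit, was higher by 1.99. Sec61b (chr4:47474658-47483242) was at 42.1, 66.5 and 91.4 CPM in nucleoplasm, 67.1, 94.7 and 111 in cytoplasm and 10.4, 7.47 and 7.57 on chromatin in mESC. In mNPC it was at 53.7, 53.8 and 43.9 CPM in nucleoplasm, 88.5, 104 and 112 in cytoplasm and 5.10, 4.44 and 3.66 on chromatin. In mCtx it was at 16.02, 14.1 and 15.4 CPM in nucleoplasm, 58.3, 61.5 and 59.7 in cytoplasm and 3.33, 2.05 and 2.97 on chromatin. Fractions overlapped in mESC, and in mNPC and mCtx every cytoplasm library was above every nucleoplasm library. The log2 fold changes were -0.45 ± 0.20, -1.01 ± 0.20 and -1.98 ± 0.21 (edgeR adjusted p = 0.0495, 0.00013 and 1.05e-08). The mESC call was lost with DESeq2 (-0.47), without mitochondrial and structured RNA genes in the scaling (-0.30), without the filter (-0.32), with the compared groups alone (-0.27) and on leaving out nucleoplasm library 1 or 2 (-0.21 and -0.46) or cytoplasm library 2 or 3 (-0.42 and -0.28). It held with the replicate block, which pairs same-numbered libraries, and in each mESC pair nucleoplasm was below cytoplasm. Sec61g had -0.56 ± 0.15, -0.65 ± 0.15 and -1.90 ± 0.16, and all were called in the main test. Its mESC call too was lost with the compared groups alone and with TPM that were not rescaled, where no member was called lower.

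By TPM, Sec61b had the highest level of the 42 genes in cytoplasm of mESC (121 TPM ± 39.2) and mNPC (65.8 ± 5.03) and the third in mCtx (46.7 ± 3.08), while Ern1 was the lowest there in each (1.0 ± 0.117, 0.393 ± 0.136 and 1.17 ± 0.123 TPM). The order in nucleoplasm was different, with Canx, Calr, Hspa5 and Hsp90b1 the first 4 in each cell type. Hspa5 at 313 TPM ± 113, Hsp90b1 at 296 ± 101 and Calr at 327 ± 106 lay within their SDs in mESC nucleoplasm, as did all 4 in mNPC. In mCtx Canx at 285 ± 27.2 and Calr at 255 ± 24.6 lay within theirs, above Hsp90b1 at 178 ± 11.9 and Hspa5 at 168 ± 18.7.

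Sec63 (chr10:42761496-42832514), a membrane J-protein that recruits BiP to the channel, had the largest mean of the translocation group. Stem cells had 108, 89.7 and 93.2 CPM in nucleoplasm, 12.01, 14.6 and 16.2 in cytoplasm and 93.7, 102 and 99.00 on chromatin. Progenitors had 216, 186 and 150.5 CPM in nucleoplasm, 57.9, 57.5 and 55.1 in cytoplasm and 184, 165 and 173 on chromatin. Neurons had 141, 156 and 146 CPM in nucleoplasm, 76.3, 55.4 and 64.2 in cytoplasm and 162, 187 and 199.9 on chromatin. Nucleoplasm overlapped chromatin in the lines and lay below it in neurons, and both were above cytoplasm in every library. Over cytoplasm the log2 fold change was 2.76 ± 0.14, 1.69 ± 0.13 and 1.18 ± 0.13 (edgeR adjusted p = 1.18e-14, 4.8e-11 and 2.16e-08). Its partner Sec62 had 2.55, 1.66 and 0.32, the last not called.

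Ssr3 (chr3:65379655-65392623) encodes the gamma subunit of the translocon-associated protein complex (TRAP) and had the highest mean CPM among translocation genes. The values were 289, 361 and 433 CPM in nucleoplasm, 68.2, 80.9 and 84.5 in cytoplasm and 90.6, 88.7 and 100.0 on chromatin in mESC. They were 434, 380.1 and 329 CPM in nucleoplasm, 416, 416 and 456 in cytoplasm and 106, 114 and 115 on chromatin in mNPC. They were 69.03, 67.1 and 68.5 CPM in nucleoplasm, 239.8, 202 and 196 in cytoplasm and 30.8, 32.2 and 38.1 on chromatin in mCtx. Nucleoplasm was far above cytoplasm in mESC, overlapped it in mNPC and was far below it in mCtx. The log2 fold change went from 2.21 ± 0.14 (edgeR adjusted p = 4.64e-13) to -0.17 ± 0.13 (0.304) and -1.64 ± 0.14 (1.07e-10). The other TRAP subunits Ssr1, Ssr2 and Ssr4 had 2.46, 1.25 and 0.32 in mESC and -0.78, -1.25 and -1.51 in mCtx, all called.

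Srpr (chr9:35200175-35247973) encodes the alpha subunit of the signal recognition particle receptor. In mESC the libraries held 173, 159 and 174 CPM in nucleoplasm, 43.1, 50.7 and 46.3 in cytoplasm and 50.8, 45.4 and 42.7 on chromatin. In mNPC they held 78.8, 88.8 and 77.6 CPM in nucleoplasm, 43.4, 38.99 and 40.5 in cytoplasm and 31.7, 38.6 and 32.9 on chromatin. In mCtx they held 28.9, 28.5 and 30.5 CPM in nucleoplasm, 31.8, 28.2 and 29.98 in cytoplasm and 16.7, 17.5 and 17.9 on chromatin. Nucleoplasm was clear of cytoplasm in the lines and overlapped it in neurons. The changes were 1.85 ± 0.10, 1.0 ± 0.10 and -0.03 ± 0.10 (edgeR adjusted p = 3.25e-14, 4.28e-09 and 0.825), and rescaled TPM gave 0.33 in mCtx, which was called. Opposite-strand genes, among them Tirap, Foxred1 and Fam118b, cover 79.5% of its span, and Gm20425 covers 84.6% of the span of Srprb, the beta subunit, on the same strand. Counts of both are therefore uncertain, and without Manf, Srpr and Srprb the counts higher and lower were 37 and 2 of 39 for stem cells, 29 and 3 for progenitors, and 11 and 17 for neurons.

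Of the 9 glycosylation and signal peptidase genes, 9 were higher in nucleoplasm in mESC, 5 in mNPC with none lower, and 1 in mCtx with 5 lower. Among all genes 29.9%, 22.6% and 29.6% were higher in these cell types, and 27.5% in mNPC and 28.6% in mCtx were lower. Rpn1 (chr6:88084473-88105304), which encodes the oligosaccharyltransferase subunit ribophorin I, had the largest mean. In mESC it was at 628, 525 and 595 CPM in nucleoplasm, 85.6, 74.1 and 89.8 in cytoplasm and 72.03, 70.97 and 92.2 on chromatin. In mNPC it was at 555, 633 and 567 CPM in nucleoplasm, 93.6, 81.97 and 114 in cytoplasm and 42.6, 38.9 and 44.2 on chromatin. In mCtx it was at 279, 237 and 264 CPM in nucleoplasm, 204, 212 and 214 in cytoplasm and 42.9, 40.7 and 44.1 on chromatin. Nucleoplasm exceeded cytoplasm in every library, narrowly in neurons. The log2 fold changes were 2.81 ± 0.13, 2.6 ± 0.13 and 0.31 ± 0.12 (edgeR adjusted p = 2.31e-15, 1.16e-14 and 0.0361). The mCtx call was lost without the filter (0.34) and on leaving out nucleoplasm library 1 or 3 or any cytoplasm library (0.25 to 0.32), and the value was -0.02 with total counts.

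Rpn2 (chr2:157279017-157326319), ribophorin II, had the highest mean CPM of the group. Its libraries in mESC gave 457, 412 and 408 CPM in nucleoplasm, 84.1, 69.4 and 77.7 in cytoplasm and 92.1, 95.7 and 109 on chromatin. Those in mNPC gave 1297, 1479.9 and 1148 CPM in nucleoplasm, 256, 231 and 295 in cytoplasm and 116, 107 and 122 on chromatin. Those in mCtx gave 190.2, 175 and 201 CPM in nucleoplasm, 148, 166 and 155 in cytoplasm and 80.2, 74.3 and 67.5 on chromatin. The progenitor nucleoplasm stood above every other group. Over cytoplasm the change was 2.47 ± 0.13 and 2.33 ± 0.13 in the lines (edgeR adjusted p = 1.16e-14 and 3.63e-14) and 0.27 ± 0.12 in mCtx (0.0585), not called here but called with DESeq2 and median-ratio size factors (0.35 in both), without mitochondrial and structured RNA genes in the scaling (0.30), with the compared groups alone (0.28) and with rescaled TPM (0.31). The paralogous catalytic subunits Stt3a, which acts on proteins during translocation, and Stt3b had 2.5 and 2.47 in mESC and 0.24 and 0.02 in mCtx, where neither was called. Ddost and Dad1, 2 further subunits of the complex, had 2.53 and 1.13 in mESC and -0.48 and -0.80 in mCtx, all called.

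Spcs1 (chr14:30999826-31001672), which encodes a small noncatalytic subunit of the signal peptidase, had the smallest mean of the group. It was at 26.5, 29.7 and 34.1 CPM in nucleoplasm, 23.3, 22.7 and 24.5 in cytoplasm and 3.03, 2.45 and 3.05 on chromatin in mESC. The mNPC libraries were at 103, 94.1 and 77.00 CPM in nucleoplasm, 95.03, 100.4 and 105 in cytoplasm and 9.90, 11.3 and 10.1 on chromatin. The mCtx libraries were at 24.2, 20.5 and 22.7 CPM in nucleoplasm, 76.3, 67.9 and 62.9 in cytoplasm and 4.32, 2.79 and 3.24 on chromatin. Nucleoplasm was just above cytoplasm in mESC, overlapped it in mNPC and was well below it in mCtx. The log2 fold changes were 0.35 ± 0.13, -0.13 ± 0.12 and -1.62 ± 0.13 (edgeR adjusted p = 0.0189, 0.41 and 5.79e-11), the first lost with total counts (0.26) and without cytoplasm library 2 (0.33) or nucleoplasm library 3 (0.25) of mESC. Spcs2 and Spcs3 turned from 1.69 and 2.14 in mESC to -0.98 and -1.25 in mCtx.

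Of the 6 genes of degradation and stress sensing, 6 were above cytoplasm in stem cells, 4 in progenitors and 3 in neurons, where 2 were lower. Among all genes 29.9%, 22.6% and 29.6% were above, and 28.6% were lower in neurons. Sel1l (chr12:91806043-91849157), the adaptor of the HRD1 ubiquitin ligase, led the group. In mESC it was at 192, 125 and 114 CPM in nucleoplasm, 17.3, 14.6 and 12.1 in cytoplasm and 65.2, 39.7 and 41.7 on chromatin. For mNPC the levels were 546, 559 and 471 CPM in nucleoplasm, 72.2, 57.8 and 69.6 in cytoplasm and 145, 136 and 139 on chromatin. For mCtx they were 347, 314 and 333 CPM in nucleoplasm, 164, 181 and 182 in cytoplasm and 147, 135 and 133 on chromatin. Nucleoplasm was the highest fraction in every cell type without overlap, although library 1 of mESC was high in each fraction. The change over cytoplasm was 3.29 ± 0.19, 2.98 ± 0.18 and 0.92 ± 0.17 (edgeR adjusted p = 1.15e-13, 4.35e-13 and 5.46e-05). Herpud1, an ER membrane protein of the degradation machinery, had 1.09, 0.05 and -0.41, the middle value not called, and Edem1, which marks misfolded glycoproteins for removal, had 1.21, 1.51 and -0.09, the last not called.

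Xbp1 (chr11:5520659-5525893) encodes a transcription factor, and its cytoplasmic mRNA is spliced by IRE1 in the stress response. In stem cells it was at 135, 134 and 188 CPM in nucleoplasm, 97.8, 110.0 and 144 in cytoplasm and 57.1, 58.2 and 80.97 on chromatin. In progenitors it was at 27.9, 28.4 and 30.7 CPM in nucleoplasm, 29.6, 29.5 and 35.3 in cytoplasm and 13.8, 15.2 and 17.96 on chromatin. In neurons it was at 48.1, 44.6 and 41.6 CPM in nucleoplasm, 116, 111 and 99.9 in cytoplasm and 24.4, 17.2 and 18.3 on chromatin. The fractions overlapped in mESC and mNPC, and in mCtx all cytoplasm libraries were above all nucleoplasm libraries. The log2 fold changes were 0.38 ± 0.16, -0.12 ± 0.17 and -1.28 ± 0.16 (edgeR adjusted p = 0.0411, 0.62 and 1.89e-07). The mESC call was lost with DESeq2 (0.36), total counts (0.28), rescaled TPM (0.31), the compared groups alone (0.56), without cytoplasm library 1 or 2 or nucleoplasm library 3 (0.26, 0.33 and 0.19) and without all mESC libraries numbered 1 (0.34). It held with the replicate block, and in each same-numbered mESC pair nucleoplasm was above cytoplasm. With TPM that were not rescaled the mCtx value was 0.02.

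Atf6 (chr1:170704457-170867771) encodes the sensor that is cut in the Golgi to free a transcription factor. Its mESC libraries were at 109, 84.6 and 89.5 CPM in nucleoplasm, 21.1, 16.7 and 16.1 in cytoplasm and 119, 123 and 109.9 on chromatin. Its mNPC libraries were at 156, 151 and 129 CPM in nucleoplasm, 41.2, 31.5 and 33.4 in cytoplasm and 85.6, 77.3 and 70.9 on chromatin. Its mCtx libraries were at 59.6, 61.1 and 58.7 CPM in nucleoplasm, 41.3, 37.1 and 35.3 in cytoplasm and 86.7, 86.7 and 87.8 on chromatin. Cytoplasm was the lowest fraction throughout. Nucleoplasm was higher than cytoplasm by 2.39 ± 0.13, 2.04 ± 0.13 and 0.66 ± 0.12 (edgeR adjusted p = 2.47e-14, 3.93e-13 and 5.02e-05), though in mCtx rescaled TPM gave 0.09, which was not called.

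Ern1 (chr11:106394650-106487852), which encodes the kinase and endoribonuclease IRE1, ran from chromatin down to cytoplasm in each cell type. The mESC libraries held 58.6, 47.5 and 44.2 CPM in nucleoplasm, 16.7, 17.3 and 16.8 in cytoplasm and 90.3, 93.6 and 110.2 on chromatin. The mNPC libraries gave 29.4, 27.7 and 25.3 CPM in nucleoplasm, 12.5, 9.60 and 11.7 in cytoplasm and 40.3, 36.4 and 38.2 on chromatin. The mCtx libraries gave 35.5, 34.5 and 33.9 CPM in nucleoplasm, 23.9, 22.9 and 23.8 in cytoplasm and 60.9, 63.7 and 70.1 on chromatin. The 3 fractions did not overlap in any cell type. Nucleoplasm was above cytoplasm by 1.57 ± 0.12, 1.29 ± 0.12 and 0.56 ± 0.12 (edgeR adjusted p = 1.35e-11, 1.19e-09 and 0.000169). The mCtx call was lost with total counts (0.23) and rescaled TPM (0.04).

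**Figure D3:**
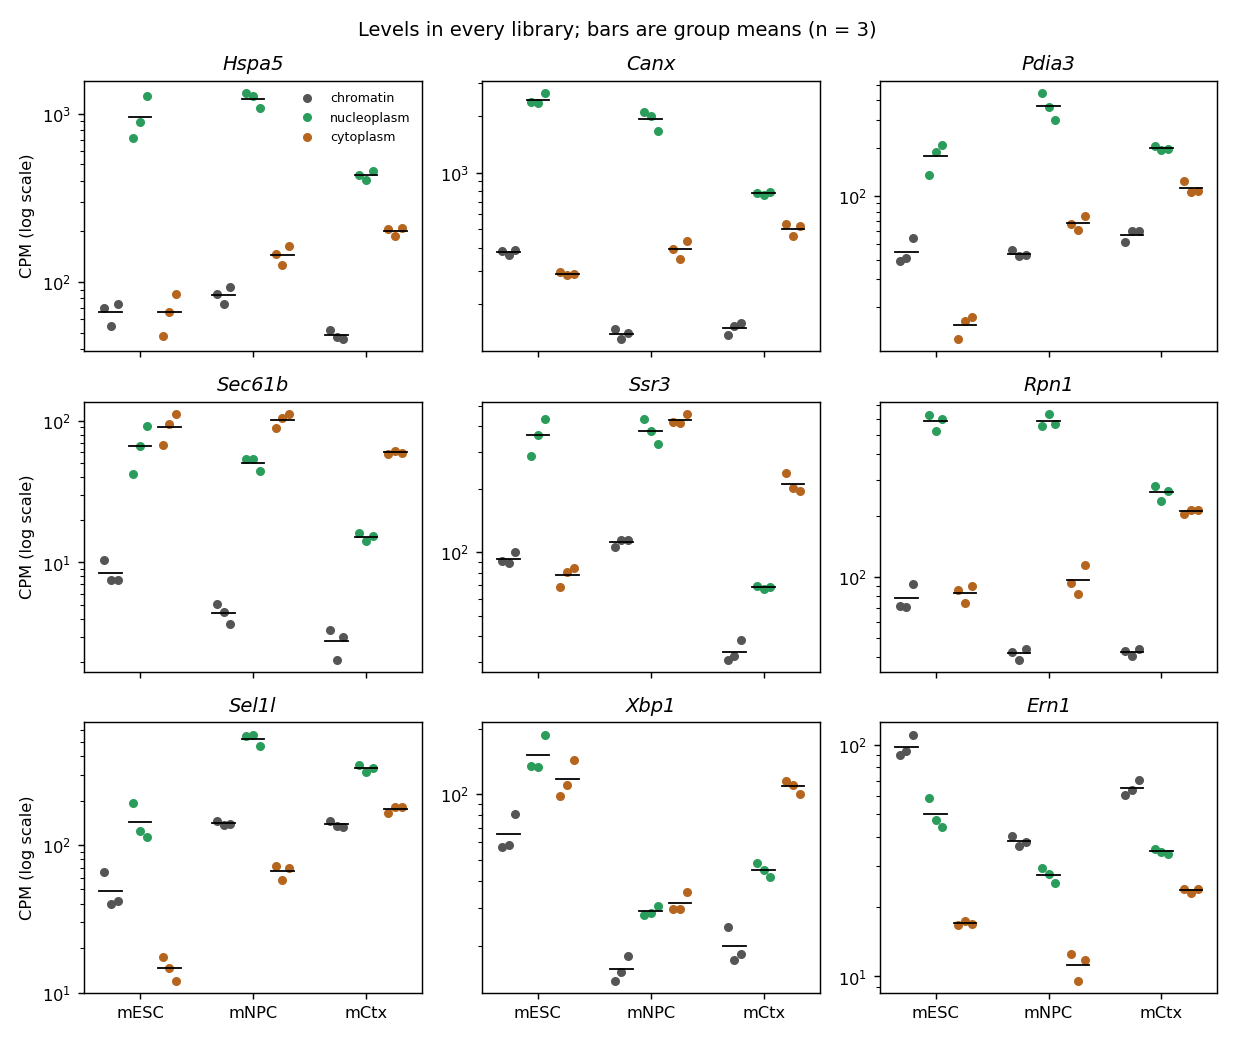
CPM (log axis) of 9 of the genes in each of the 27 libraries, with 1 point per library, grey, green and brown for chromatin, nucleoplasm and cytoplasm, and black bars for group means. Hspa5, Canx, Pdia3 and Sel1l are highest in nucleoplasm in every cell type, Sec61b has its highest mean in cytoplasm, and Ern1 is highest on chromatin.

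The comparison with chromatin asks whether the same RNAs are held with nascent RNA. Most were more abundant in nucleoplasm, where 39 of 42 genes were higher than on chromatin for mESC, with 2 lower and a median of 1.91, against 30.0% and 36.3% of all genes. In mNPC 39 were higher and 1 lower (median 2.04), against 32.5% and 33.5%, and in mCtx 36 and 3 (median 1.33), against 30.6% and 26.5%. Hspa5 was higher than on chromatin by 3.86 ± 0.20, 3.87 ± 0.20 and 3.16 ± 0.20 in mESC, mNPC and mCtx. Sec61b, although low in nucleoplasm against cytoplasm, was higher than on chromatin by 2.97 ± 0.22, 3.51 ± 0.24 and 2.46 ± 0.26. Sdf2l1, a partner of the co-chaperone Dnajb11, had 3.85 ± 0.23, 5.03 ± 0.27 and 2.71 ± 0.32.

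Sec63 and Ern1 were not higher than on chromatin in any cell type, and Atf6 in mESC and mCtx. Ern1 was lower in nucleoplasm, with -0.97 ± 0.11, -0.48 ± 0.12 and -0.91 ± 0.11 (edgeR adjusted p = 2.88e-08, 0.000626 and 1.63e-07), but rescaled TPM gave -0.20 and -0.09 in mESC and mNPC, not called. Atf6 had -0.31 ± 0.12 in mESC (0.0236) and -0.54 ± 0.12 in mCtx (0.000449), but was higher by 0.90 ± 0.12 in mNPC. With rescaled TPM it was higher by 0.92 in mESC, and the mESC call was lost without the filter (-0.27), with the compared groups alone (-0.21) and without chromatin library 2 (-0.28) or nucleoplasm library 2 or 3 (-0.25 and -0.28). Sec63 had -0.02 ± 0.13 and 0.08 ± 0.13 in mESC and mNPC, not called, and -0.31 ± 0.13 in mCtx (edgeR adjusted p = 0.046). That call was lost with total counts (-0.06) and on leaving out chromatin library 2 or 3 or any nucleoplasm library (-0.23 to -0.34), and with rescaled TPM Sec63 was higher in nucleoplasm in all 3 cell types (1.49, 1.75 and 0.72). Rescaled TPM also turned Srpr in mCtx from 0.75 to -0.38 and Srprb from 1.03 to -0.43, each called both ways. Herpud1 in mNPC (-0.10) and Dnajc3, Dnajc10 and Edem1 in mCtx (0.08, 0.26 and 0.20) were not called. Counts over spans include introns, and over the 42 genes the fold change ran with span. Spearman's rho of log2 span with nucleoplasm over chromatin was -0.479, -0.351 and -0.548 in mESC, mNPC and mCtx, and with nucleoplasm over cytoplasm 0.281, 0.377 and 0.559, across genes that share libraries.

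The difference between cell types in the nucleoplasm-to-cytoplasm ratio was tested as a contrast of contrasts. From mESC to mCtx the ratio was lower in 42 of 42 genes (median log2 difference -2.44), while 23.1% of all genes had a lower and 23.0% a higher ratio. From mNPC to mCtx it was lower in 41 (median -1.63), against 19.3% lower and 18.6% higher of all genes, and from mESC to mNPC in 27 (median -0.76), against 12.6% and 11.6%. None was higher in any of these comparisons, which share their cell types. With the replicate block, from mESC to mNPC 1 was higher, 33 were lower and 8 were not called. By value, the fold change over cytoplasm ran in the order mESC, mNPC, mCtx in 41 of 42 genes and in 25.2% of all genes. Edem1 was the exception, with 1.21, 1.51 and -0.09. In 17 genes nucleoplasm was called higher in mESC and lower in mCtx, as in 4.83% of all genes. Rescaled TPM gave 41, 40 and 20 genes with a lower ratio. TPM without rescaling gave 34 lower from mESC to mCtx and 33 from mESC to mNPC, but 1 lower and 3 higher from mNPC to mCtx, where the median of all genes had moved to 0.818. Of the 19447 genes tested in this way, 1617, 2832 and 400 were lower in these comparisons, and 11478 were higher from mNPC to mCtx.

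Ssr3 differed most from mESC to mCtx, with -3.85 ± 0.20 (edgeR adjusted p = 4.24e-14), and Manf least, with -0.72 ± 0.16 (0.000437). The difference was -2.76 ± 0.26 for Hspa5, -2.44 ± 0.17 for Canx and -2.0 ± 0.26 for Hsp90b1. The sensors had smaller differences, Atf6 -1.73 ± 0.18 and Ern1 -1.01 ± 0.16. From mESC to mNPC, Ssr3 (-2.39 ± 0.19) and Spcs3 (-2.07 ± 0.15) differed most. Rpn1 (-0.21 ± 0.18), Rpn2 (-0.14 ± 0.17), Hyou1 (-0.20 ± 0.22) and Sel1l (-0.31 ± 0.25) were among the 15 genes not called there without the block. The single gene not called from mNPC to mCtx was Herpud1 (-0.46 ± 0.22, edgeR adjusted p = 0.106).

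Levels were then compared between cell types within each fraction. In such bulk samples, fewer cells that hold an RNA and less RNA per cell cannot be told apart. In cytoplasm 31 of the 42 genes were higher in mCtx than in mESC and 4 lower (median 1.18), against 40.1% and 41.6% of all genes, and 29 were higher and 3 lower in mNPC than in mESC (median 1.06), against 36.5% and 39.4%. Between mCtx and mNPC 16 were higher and 10 lower (median 0.17), against 32.6% and 33.4%. In nucleoplasm the direction against mESC was the other way for neurons. There 3 genes were higher and 36 lower in mCtx than in mESC (median -1.27), against 38.8% and 43.4%, and 2 and 38 in mCtx than in mNPC (median -1.48), against 36.9% and 34.9%. In mNPC 18 were higher and 10 lower than in mESC (median 0.22), against 35.7% and 41.5%. On chromatin 6 were higher and 31 lower in mCtx than in mESC (median -0.77, with all genes at -0.379), against 33.0% and 47.4%, 9 and 19 in mNPC than in mESC (median -0.24), against 33.8% and 42.7%, and 4 and 23 in mCtx than in mNPC (median -0.49), against 30.2% and 39.2%. In 25 genes cytoplasm was higher and nucleoplasm lower in mCtx than in mESC, as in 4.01% of all genes, and 31 were lower in nucleoplasm and on chromatin, as in 39.0%.

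These splits depended on scaling and measure. With total counts, which put the median of all genes at -1.17 and -0.778, the chromatin splits of mCtx were 1 higher and 39 lower against mESC and 0 and 35 against mNPC. Median-ratio size factors gave 9 and 17, DESeq2 10 and 17, rescaled TPM 6 and 16, and the compared groups alone 10 and 22 for mCtx against mNPC on chromatin. TPM without rescaling (pseudocount 1) put the median of all genes between -0.667 (mNPC against mESC) and 0.89 (mCtx against mNPC), both on chromatin, where counts had -0.181 and -0.176. It gave, as higher and lower, 13 and 13 (cytoplasm, mNPC against mESC), 16 and 8 (cytoplasm, mCtx against mESC) and 14 and 3 (cytoplasm, mCtx against mNPC). Of the 19447 genes tested in this way, 2689 and 7704, 4361 and 7437, and 4453 and 3022 were so, in that order. In nucleoplasm TPM without rescaling gave 0 and 34 (mNPC against mESC) and 17 and 4 (mCtx against mNPC). The counts of all genes there were 1904 and 9927, and 12721 and 1438. On chromatin the members gave 2 and 34 (mNPC against mESC), 6 and 16 (mCtx against mESC) and 27 and 0 (mCtx against mNPC). All genes there gave 2254 and 11583, 8104 and 5570, and 12870 and 1411. Srprb on chromatin of mCtx against mESC was -0.97 by counts and 0.42 by rescaled TPM, both called. After rescaling by the median ratio, TPM gave 26 and 6, 30 and 6, and 15 and 8 in cytoplasm and 13 and 10, 1 and 38, and 1 and 39 in nucleoplasm, in the order mNPC against mESC, mCtx against mESC and mCtx against mNPC.

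**Figure D4:**
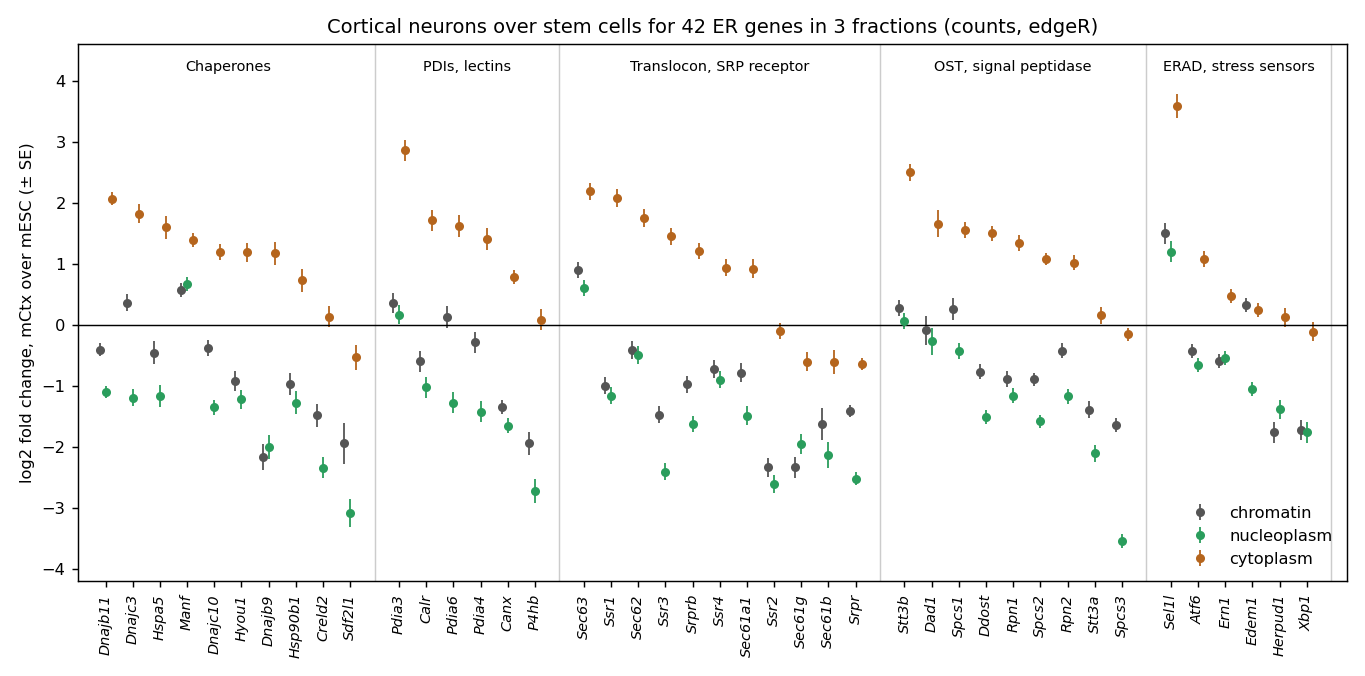
Log2 fold change of mCtx over mESC (counts, edgeR) with its SE for each of the 42 genes in chromatin (grey), nucleoplasm (green) and cytoplasm (brown), grouped by role. The values run from 3.58 for Sel1l in cytoplasm to -3.54 for Spcs3 in nucleoplasm.

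The largest rise in cytoplasm from mESC to mCtx was that of Sel1l, by 3.58 ± 0.19 (edgeR adjusted p = 2.98e-15). Its cytoplasm libraries, given above, did not overlap between cell types. Sel1l was also higher in nucleoplasm (1.2 ± 0.17) and on chromatin (1.5 ± 0.18), and rescaled TPM gave 2.7, 1.0 and 1.43, all called. Pdia3 rose in cytoplasm by 2.86 ± 0.17 (edgeR adjusted p = 2.66e-14), from 12.7, 16.5 and 17.5 CPM in mESC to 124, 106 and 108 CPM in mCtx, whereas its nucleoplasm value was 0.17 ± 0.16 and not called. Stt3b (2.5), Sec63 (2.19), Ssr1 (2.08) and Dnajb11 (2.07) followed. Hspa5 was higher in mCtx cytoplasm by 1.6 ± 0.19 and lower in nucleoplasm (-1.16 ± 0.18) and on chromatin (-0.46 ± 0.19).

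Srpr and Sec61b had the largest falls in cytoplasm, with -0.64 ± 0.10 and -0.60 ± 0.20 (edgeR adjusted p = 2.3e-06 and 0.00722). The Sec61b call was lost with total counts (-0.36) and without cytoplasm library 3 of mESC (-0.43). Sec61g (-0.60) and Sdf2l1 (-0.53) were the other 2 lower genes. These 4 were lower in all 3 fractions of mCtx, as were 31.5% of all genes, and rescaled TPM called all 4 lower in each. Those higher in all 3 fractions by counts were Manf, Sec63 and Sel1l, against 25.8% of all genes. With rescaled TPM, Manf was lower in nucleoplasm (-1.76) and not called on chromatin (-0.12), and Sec63 was not called in nucleoplasm (-0.10), so that of the 3 only Sel1l held in each fraction on both measures.

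In mNPC against mESC, 9 genes were higher in all 3 fractions, against 24.4% of all genes, namely Dnajc3, Dnajc10, Pdia4, Sec63, Ssr4, Ddost, Stt3b, Spcs1 and Sel1l. The 2 lower in all 3 were Xbp1 and Ern1, against 29.8% of all genes, the transcription factor and the endoribonuclease that splices its mRNA. Both counts lay below the shares of all genes, and a link between the 2 falls was not tested. Xbp1 had -1.90 ± 0.17 in cytoplasm (edgeR adjusted p = 8.5e-11), -2.39 ± 0.17 in nucleoplasm and -2.07 ± 0.17 on chromatin, and rescaled TPM gave -2.07, -2.34 and -2.07. Ern1 had -0.59 ± 0.12, -0.87 ± 0.12 and -1.36 ± 0.11, and with rescaled TPM the cytoplasm value was -0.28 and not called. In mCtx cytoplasm Xbp1 was not called against mESC (-0.11 ± 0.16, edgeR adjusted p = 0.533) and was higher than in mNPC by 1.79 ± 0.17. Atf6 rose in cytoplasm of mNPC and mCtx against mESC, by 0.98 ± 0.13 and 1.08 ± 0.13.

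Other genes of the same processes were counted from lists chosen by function. For comparison, 29.9%, 22.6% and 29.6% of all genes were higher in nucleoplasm than in cytoplasm of mESC, mNPC and mCtx. The shares lower were 33.2%, 27.5% and 28.6%. Of 46 further folding genes tested, 46, 40 and 14 were above cytoplasm in nucleoplasm of mESC, mNPC and mCtx, and 0, 1 and 18 were lower (medians 2.35, 1.45 and -0.09). Of 43 further translocation and glycosylation genes 27, 23 and 9 were higher and 10, 15 and 26 lower (medians 1.46, 0.45 and -0.57). Of 27 further degradation genes 21, 16 and 6 were higher and 5, 6 and 13 lower (medians 1.74, 1.08 and -0.44). Of 17 further stress response genes 8, 7 and 2 were higher and 6, 5 and 9 lower (medians 0.73, -0.21 and -0.74). Cytosolic chaperones, whose proteins are made on free ribosomes, had negative medians in all 3 cell types. The difference between lists was not tested, nor was any part of the site of translation in it. Of 49 tested, 1, 0 and 10 were higher and 45, 36 and 23 lower (medians -1.13, -0.84 and -0.31). Their ratio from mESC to mCtx was higher in 27 and lower in 7, against 23.0% and 23.1% of all genes.

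**Figure D5:**
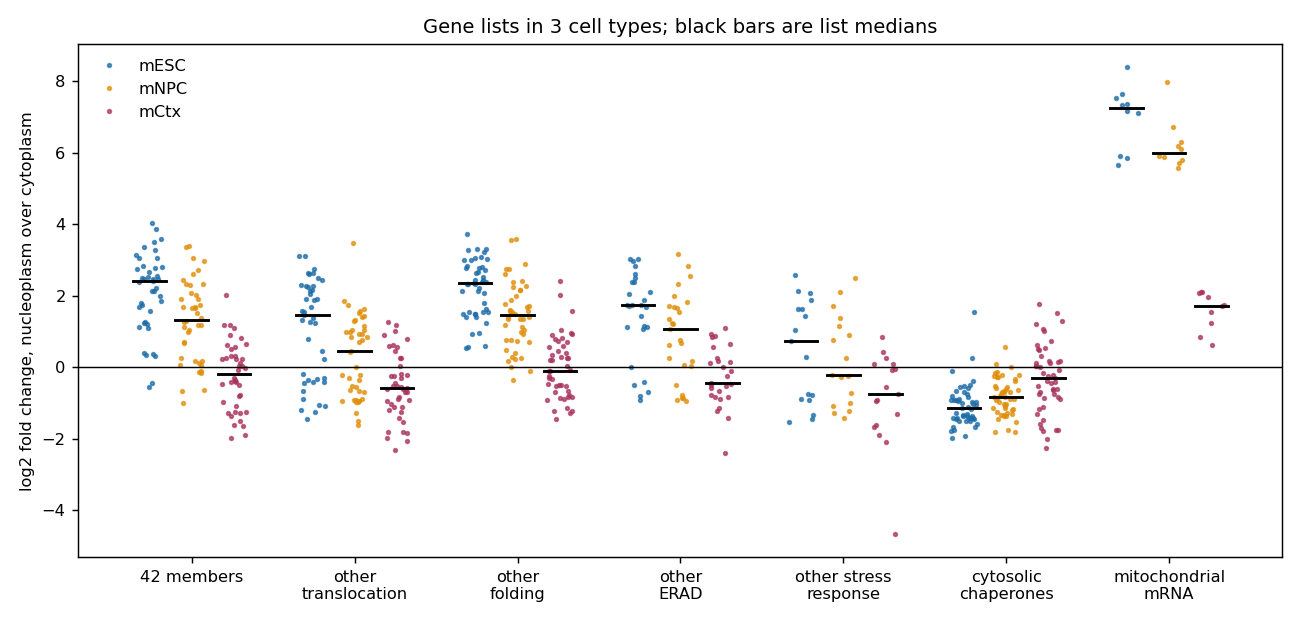
Log2 fold change of nucleoplasm over cytoplasm (counts, edgeR) for each gene of 7 lists, coloured by cell type, with black bars for list medians. The 42 members and the other ER lists have their highest median in mESC (2.41 for the members) and their lowest in mCtx, while cytosolic chaperones run the other way, from -1.13 to -0.31.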

How the data were processed

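Ribosomal RNA-depleted RNA of 3 fractions of 3 cell types was sequenced with stranded 100 bp paired reads, per the labels' protocols. Per the submitters' processing notes the tools included STAR, kallisto and featureCounts, with neither versions nor roles given, on mm10. The authors deposited whole-number counts of 37332 genes, over gene spans with introns. The chromatin columns, labelled estimated count only in this report's unit records because of their header, were deposited by the authors as whole-number counts. Their values were counted over gene spans before deposit, like the rest, and were used as such. Strand, multi-mapping and overlap settings are not given in the sources used here. The authors also deposited TPM for 53379 genes, by a tool not given in the sources used here. The 42 genes, their roles, the lists and the tests were chosen with earlier results of these data known.

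All 27 libraries entered a single edgeR 4.0.16 model (R 4.3.3) of the 9 groups, with TMM scaling and filterByExpr, which left 18249 genes and 18 residual degrees of freedom. The 18 comparisons were contrasts, each adjusted over all genes tested. The tests were checked on simulated counts, drawn independently with the same dispersion for all genes and libraries. That check does not cover the pairing or the uneven spread of the mESC libraries. Per-library values are given, by rule, for the genes with the highest mean CPM and the largest and smallest mean nucleoplasm-to-cytoplasm change in each role group, for Hspa5, Xbp1, Atf6 and Ern1, and for the 2 largest changes each way in mCtx against mESC cytoplasm. Others are named with fold changes only, chosen after their values were seen.

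Results were recomputed with DESeq2 1.42.0, total counts, median-ratio size factors, TMM without mitochondrial and structured RNA genes, no filter, only the compared groups, limma 3.58.1 on log2(TPM + 1), on log2(TPM + 0.1) and on TPM rescaled by median ratio (at least 1 TPM in 3 libraries), a replicate block, and leaving out each library. Leaving out all mESC libraries numbered 1 was added after seeing the data. Same-numbered mESC fractions deviated together from their group means (correlations 0.388 to 0.751, genes at 10 CPM or more), so they were taken as paired from the data. The main test has no term for this pairing, so its SE and p-values for mESC leave it out. For the fraction and ratio comparisons the replicate block is the paired fit, by library number within each cell type. With it 40 of the 42 genes were higher and 2 lower in nucleoplasm than in cytoplasm of mESC. For comparisons of cell types within a fraction it joins equal numbers across cell types, where no pairing is known. The lowest correlation of nucleoplasm with cytoplasm was -0.055 in mNPC and -0.031 in mCtx, so these were not taken as paired. In mNPC chromatin with cytoplasm, which are not compared here, all 3 were over 0.1 (0.361, 0.185 and 0.197). Cultures are not identified further, so p-values measure the spread between these samples.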

Additional observations from a re-analysis of the deposited data

Results flagged for a closer look

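The fraction effect differed between cell types by a test of the difference itself, the contrast of the nucleoplasm-to-cytoplasm ratios in edgeR. The ratio was lower in 27 of the 42 genes in mNPC than in mESC, in 42 in mCtx than in mESC and in 41 in mCtx than in mNPC, against 12.6%, 23.1% and 19.3% of all genes tested. Among the genes given by library, the log2 difference of the ratio (mCtx minus mESC) was -2.76 for Hspa5, -2.0 for Hsp90b1 and -0.72 for Manf. It was -2.69 for Pdia3, -2.81 for P4hb and -2.44 for Canx. For the translocation genes it was -1.53 for Sec61b, -1.58 for Sec63, -3.85 for Ssr3 and -1.88 for Srpr. It was -2.50 for Rpn1, -2.20 for Rpn2 and -1.97 for Spcs1. It was -2.38 for Sel1l, -1.66 for Xbp1, -1.73 for Atf6 and -1.01 for Ern1. The share of mitochondrial RNA in nucleoplasm also differs between these cell types, as given above, and its part in these differences was not tested.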

How the results depend on the processing

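Counts of members called are given with the value of the main test after "from", and counts not listed stayed within 1.5 times. DESeq2 gave 1 lower for nucleoplasm against cytoplasm in mESC (from 2), 6 lower for mNPC against mESC in cytoplasm (from 3) and 10 higher for mCtx against mNPC in chromatin (from 4). TMM without mitochondrial and structured RNA genes gave 1 lower for nucleoplasm against cytoplasm in mESC (from 2). The fit without the filter gave 1 lower for nucleoplasm against cytoplasm in mESC (from 2) and 1 lower for nucleoplasm against chromatin in mESC (from 2). The compared groups alone gave 0 lower for nucleoplasm against cytoplasm in mESC (from 2), 1 lower for nucleoplasm against chromatin in mESC (from 2) and 10 higher for mCtx against mNPC in chromatin (from 4). Total counts gave 5 lower for nucleoplasm against cytoplasm in mNPC (from 3), 3 lower for nucleoplasm against chromatin in mNPC (from 1), 2 lower for mCtx against mESC in cytoplasm (from 4), 1 higher for mCtx against mESC in chromatin (from 6), 0 higher for mCtx against mNPC in chromatin (from 4) and 35 lower for mCtx against mNPC in chromatin (from 23). Rescaled TPM gave 0 lower for nucleoplasm against chromatin in mESC (from 2), 0 lower for nucleoplasm against chromatin in mNPC (from 1), 6 lower for mNPC against mESC in cytoplasm (from 3), 1 higher for mCtx against mESC in nucleoplasm (from 3) and 1 higher for mCtx against mNPC in nucleoplasm (from 2). The replicate block, the paired fit, gave 1 higher for the ratio of mNPC against mESC (from 0). Median-ratio size factors gave 6 lower for mNPC against mESC in cytoplasm (from 3) and 9 higher for mCtx against mNPC in chromatin (from 4). Leaving out the mESC libraries numbered 1 gave 6 lower for mNPC against mESC in cytoplasm (from 3). Unscaled TPM with pseudocounts of 1 and 0.1 gave 0 lower for nucleoplasm against cytoplasm in mESC (from 2), 28 higher for nucleoplasm against cytoplasm in mCtx (from 11), 2 lower for nucleoplasm against cytoplasm in mCtx (from 19), 1 lower for nucleoplasm against chromatin in mESC (from 2) and 3 lower for nucleoplasm against chromatin in mNPC (from 1). It also gave 3 higher for the ratio of mCtx against mNPC (from 0), 1 lower for the ratio of mCtx against mNPC (from 41), 13 and 14 higher for mNPC against mESC in cytoplasm (from 29), 13 lower for mNPC against mESC in cytoplasm (from 3) and 16 and 17 higher for mCtx against mESC in cytoplasm (from 31). There were 8 lower for mCtx against mESC in cytoplasm (from 4), 3 lower for mCtx against mNPC in cytoplasm (from 10), 0 higher for mNPC against mESC in nucleoplasm (from 18), 34 lower for mNPC against mESC in nucleoplasm (from 10) and 1 higher for mCtx against mESC in nucleoplasm (from 3). Further counts were 17 and 16 higher for mCtx against mNPC in nucleoplasm (from 2), 4 lower for mCtx against mNPC in nucleoplasm (from 38), 2 higher for mNPC against mESC in chromatin (from 9), 34 lower for mNPC against mESC in chromatin (from 19) and 16 and 15 lower for mCtx against mESC in chromatin (from 31). The rest were 27 and 28 higher for mCtx against mNPC in chromatin (from 4) and 0 lower for mCtx against mNPC in chromatin (from 23). With a pseudocount of 1, 12870 of the 19447 genes tested were higher there and 1411 lower. Leaving out each library in turn gave 1 to 2 lower for nucleoplasm against cytoplasm in mESC, 1 to 2 lower for nucleoplasm against chromatin in mESC, 0 to 1 higher for the ratio of mNPC against mESC, 3 to 5 lower for mNPC against mESC in cytoplasm, 2 to 5 lower for mCtx against mESC in cytoplasm, 1 to 2 higher for mCtx against mNPC in nucleoplasm and 3 to 7 higher for mCtx against mESC in chromatin. With unscaled TPM and pseudocounts of 1 and 0.1, log2 values turned to -1.33 and -1.35 for Manf (mCtx against mESC in nucleoplasm), 0.85 and 0.86 for P4hb (nucleoplasm against cytoplasm in mCtx), -0.44 for Canx (mNPC against mESC in cytoplasm), -0.82 for Sec61b (mNPC against mESC in cytoplasm) and 1.02 and 1.11 for Sec63 (nucleoplasm against chromatin in mESC). Other such values were 0.40 and 0.42 for Sec63 (nucleoplasm against chromatin in mCtx), 1.31 and 1.49 for Srpr (nucleoplasm against cytoplasm in mCtx), -0.23 and -0.27 for Srpr (nucleoplasm against chromatin in mNPC), -0.75 and -0.80 for Srpr (nucleoplasm against chromatin in mCtx) and -0.46 and -0.49 for Rpn1 (mNPC against mESC in cytoplasm). Further ones were 0.02 for Xbp1 (nucleoplasm against cytoplasm in mCtx), -0.06 for Xbp1 (nucleoplasm against chromatin in mESC), -0.63 and -0.77 for Xbp1 (nucleoplasm against chromatin in mNPC) and 0.48 and 0.55 for Atf6 (nucleoplasm against chromatin in mESC). With rescaled TPM they turned to -1.76 for Manf (mCtx against mESC in nucleoplasm), 1.49 for Sec63 (nucleoplasm against chromatin in mESC), 0.72 for Sec63 (nucleoplasm against chromatin in mCtx), -0.10 for Sec63 (mCtx against mESC in nucleoplasm) and 0.33 for Srpr (nucleoplasm against cytoplasm in mCtx). Other such values were -0.38 for Srpr (nucleoplasm against chromatin in mCtx), 0.92 for Atf6 (nucleoplasm against chromatin in mESC) and 0.21 for Atf6 (nucleoplasm against chromatin in mCtx). With total counts they turned to -0.36 for Sec63 (nucleoplasm against chromatin in mNPC) and -0.02 for Rpn1 (nucleoplasm against cytoplasm in mCtx). The cause of these changes was not tested. From mESC to mCtx the ratio stayed lower in 42 of 42 genes when any one library was left out. The replicate block changed no other count by over 1.5 times, but for cell types compared within a fraction it is no check of pairing. Counts of 5 or fewer move by that factor with 1 or a few genes. Shares of a library are compared, not amounts per cell, and low counts such as those of Sdf2l1 on chromatin limit precision.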
